A study of Mus musculus with 6 samples.

Results

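The genes described here are the 4 *Id* genes (*Id1*, *Id2*, *Id3* and *Id4*) and 4 genes of the BMP-SMAD pathway (*Bmp4*, *Bmpr1a*, *Smad6* and *Smad7*), followed over 6 Affymetrix arrays of mouse pluripotent cells. They were chosen by name, and their values come from every probe set (a group of short probes summarised as 1 signal) whose only gene symbol is 1 of these names. This gave 12 probe sets for the 8 genes, of 45037 probe sets besides controls and 17097 named genes on the array. *Id2* and *Id4* had 3 probe sets each and the other 6 genes had 1 each.

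All cells derived from E14tg2a, a line of mouse ESCs, and carried a piggyBac Tet-on cassette from which doxycycline induces FLAG-tagged *Prdm14*. ESCs were compared with EpiLCs, epiblast-like cells obtained from them with activin A and bFGF, at day 2 (EpiLCs (d2)) and day 4 (EpiLCs (d4)), with EpiLCs in which PRDM14 was induced from day 2 (EpiLCs + PRDM14), and with the same 2 conditions, EpiLCs (d2) and PRDM14 induction, under the label *Tet1*/*Tet2* KD. The other EpiLC arrays were labelled Scramble, that is, they carried a control shRNA, whereas the label of the ESC array gave no shRNA. Each condition was 1 array of cells from picked colonies or an shRNA-carrying line, so no value has a replicate and no test was possible. EpiLCs left the induction medium at day 2 for GK15, a medium with serum replacement, so EpiLCs + PRDM14 differed from EpiLCs (d2) in day and medium as well as in PRDM14, and these cannot be told apart. EpiLCs (d4) had the same day and medium as EpiLCs + PRDM14 but no doxycycline. The labels describe ESC culture with serum and LIF, the methods also describe 1 with CHIR99021, PD0325901 and LIF, and which of them the ESC array comes from is not stated.

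ID proteins are helix-loop-helix proteins without a DNA-binding region. They pair with E proteins and other bHLH factors and keep them off DNA, and *Id* genes are well-known direct targets of BMP signalling. BMP ligands such as BMP4 bind receptors such as BMPR1A, which phosphorylate SMAD1, SMAD5 and SMAD9. With SMAD4 these enter the nucleus and induce targets that include *Smad6* and *Smad7*, which encode inhibitory SMADs that dampen the signal. In mouse ESCs, BMP4 with LIF is known to sustain self-renewal, with *Id* genes among its targets, and BMP4 from the extraembryonic ectoderm induces germ cell precursors in the embryo.

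Levels are given as log2 signal relative to the array's median, so 0 is the median probe set of that array, and every comparison is a difference of 2 such levels. A difference of 1.5-fold or more, 0.585 on the log2 scale, was called. The deposited medians were 5.28 to 5.29 in the 4 other arrays and 5.07 in both KD-labelled arrays, which is why the median of each array was subtracted. A gene with several probe sets is given by the brightest, and levels are compared only within a probe set. In bulk RNA, a change in the number of cells of a type cannot be told apart from a change of RNA per cell.

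The labels and cell states were checked first. All 8 markers of naive ESCs, *Klf4* and *Nanog* among them, were at least 1.5-fold higher in ESCs and in scramble EpiLCs + PRDM14 than in EpiLCs (d2). Of 6 EpiLC markers, 5 and 6 were lower in these pairs. Against EpiLCs (d4), EpiLCs + PRDM14 had 7 naive markers higher and 4 EpiLC markers lower. Between the KD-labelled EpiLCs + PRDM14 and EpiLCs (d2), 6 naive markers were higher and 6 EpiLC markers lower. By its brightest probe set, the *Tet2* level was 3.25 in EpiLCs (d2) and 3.43 in the array labelled KD EpiLCs (d2). In the PRDM14 arrays it was 3.23 against 2.69, lower by 1.45-fold under the KD label, which was not called. A second *Tet2* probe set read 0.67 against 0.88 at day 2 and 0.81 against 0.64 in the PRDM14 arrays, also not called. Neither probe set thus showed the knockdown at day 2. The paper states that it examined the knockdown by qRT-PCR and western blot, which are not part of the array values used here. *Tet1* was not analysed here. The *Prdm14* probe set read 1.67 in ESCs and between -0.37 and -0.10 in the 5 EpiLC arrays. It was not higher in the arrays labelled + PRDM14, and whether it lies in the induced *Prdm14* cDNA is not stated in the sources at hand. The paper followed *Prdm14* in both backgrounds by qRT-PCR.

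Of the 8 genes, 3 were higher with PRDM14 than in EpiLCs (d2), namely *Id3*, *Id2* and *Bmp4*. *Id3* had the largest difference of the 3 against both EpiLCs (d2) and EpiLCs (d4), *Id2* was higher against EpiLCs (d2) but not against EpiLCs (d4), and *Bmp4* passed the threshold narrowly. *Id1*, which like *Id3* lay above the array median in all arrays, ranged over 0.33 log2 units in all 6 arrays. To show what lies upstream of the 3 genes that differed, the 250 bases before each start site are printed from RefSeq (GRCm38.p6). Capitals mark GGCGCC, a GC-rich element that SMAD1 and SMAD5 are known to bind, and CAGAC or its reverse complement GTCTG, a SMAD-binding box.
Id3 (chr4:136143572-136143821, plus strand): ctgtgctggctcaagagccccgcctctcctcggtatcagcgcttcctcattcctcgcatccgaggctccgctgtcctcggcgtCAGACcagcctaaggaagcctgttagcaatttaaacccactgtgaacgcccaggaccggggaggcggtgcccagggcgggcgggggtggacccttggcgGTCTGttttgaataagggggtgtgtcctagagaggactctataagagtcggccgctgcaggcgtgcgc
Id2 (chr12:25096093-25096342, minus strand): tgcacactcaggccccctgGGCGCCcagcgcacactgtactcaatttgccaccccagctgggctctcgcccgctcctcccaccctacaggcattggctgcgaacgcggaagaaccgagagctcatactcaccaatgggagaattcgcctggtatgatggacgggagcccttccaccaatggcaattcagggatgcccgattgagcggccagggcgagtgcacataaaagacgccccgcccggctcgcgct
Bmp4 (chr14:46390670-46390919, minus strand): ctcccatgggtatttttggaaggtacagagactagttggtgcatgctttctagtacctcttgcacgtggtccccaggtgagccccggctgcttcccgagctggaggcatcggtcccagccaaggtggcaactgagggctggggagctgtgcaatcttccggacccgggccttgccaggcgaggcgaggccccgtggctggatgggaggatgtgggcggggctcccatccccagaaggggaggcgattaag

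Of the 8 genes, 6 matched a RefSeq promoter entry. The *Id2* window held 1 GGCGCC, 231 bases before the start, and GGCGCC was in 9.6% of all 32851 promoter windows of 250 bases. It was also in the windows of *Id4* and *Bmpr1a*, whose probe sets lay below the array median in all 6 arrays. The *Id3* window held CAGAC or GTCTG at 167 and 68 bases before the start, and 42.2% of all windows held 1 or more. *Bmp4* and *Smad6* held neither, with both strands searched and no overlap between the motifs. The E-box CANNTG, the site of the bHLH factors that ID proteins sequester, occurred 3 times for *Bmp4*, 1 time for *Id2* and not for *Id3*, against 66.2% of all windows with at least 1. These matches describe letters in the windows and nothing about binding.

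*Id3* (probe set 1416630_PM_at) was high in ESCs and in both PRDM14 arrays and low in the EpiLCs without PRDM14. Its level was 2.99 for ESCs, 0.17 for EpiLCs (d2) and 0.60 for EpiLCs (d4), 3.14 for EpiLCs + PRDM14, 1.12 in the KD-labelled EpiLCs (d2) and 3.52 in the KD-labelled EpiLCs + PRDM14. The 3 high arrays lay 0.38 and 0.15 apart and the lowest of them stood 1.87 above the next array. *Id3* was 7.85-fold higher with PRDM14 than in EpiLCs (d2), a log2 difference of 2.97 and rank 4 from the highest of 17097 genes. Against EpiLCs (d4), the array of the same day and medium, the difference was 2.54, or 5.80-fold, again rank 4. ESCs exceeded EpiLCs (d2) by 2.82, or 7.07-fold, and the 2 days of EpiLCs differed by 0.44, under the threshold.

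The levels of *Id2* (probe set 1435176_PM_a_at) had another order. They were -1.16 for ESCs, -0.06 for EpiLCs (d2), 1.88 for EpiLCs (d4), 1.31 for EpiLCs + PRDM14, 1.42 in the KD-labelled EpiLCs (d2) and 3.17 in the KD-labelled EpiLCs + PRDM14. ESCs were the lowest array and the KD-labelled PRDM14 array the highest, and the 3 arrays between 1.31 and 1.88 were within 1.5-fold of each other. *Id2* was 2.59-fold higher with PRDM14 than in EpiLCs (d2) (log2 difference 1.37). Against EpiLCs (d4) it was lower by 1.49-fold (log2 difference -0.57), just inside the threshold, and EpiLCs (d4) without PRDM14 exceeded EpiLCs (d2) by 1.95, or 3.85-fold, rank 12 of all genes. ESCs were 2.14-fold below EpiLCs (d2), the reverse of *Id3*, but both levels lay below the array median.

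The other probe sets of *Id2* bear on how firmly its values can be read. The second in brightness, 1422537_PM_a_at, read -0.02, 0.07, 0.61, 0.57, 0.72 and 1.61 in the same order of arrays, a narrower range with the same arrays at the top and the bottom. Its differences were 0.50 for EpiLCs + PRDM14 against EpiLCs (d2) and -0.04 against EpiLCs (d4). Against EpiLCs (d2) it differed by -0.09 in ESCs and by 0.54 in EpiLCs (d4), and none of these differences was called. The third, 1453596_PM_at, lay between -1.83 and -1.43 in all 6 arrays, far below the median. ESCs were thus lowest in both brighter probe sets, but the gap to EpiLCs (d2) was called in the brightest alone. The same held for the higher levels of EpiLCs (d4) and EpiLCs + PRDM14 over EpiLCs (d2).

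**Figure D1:**
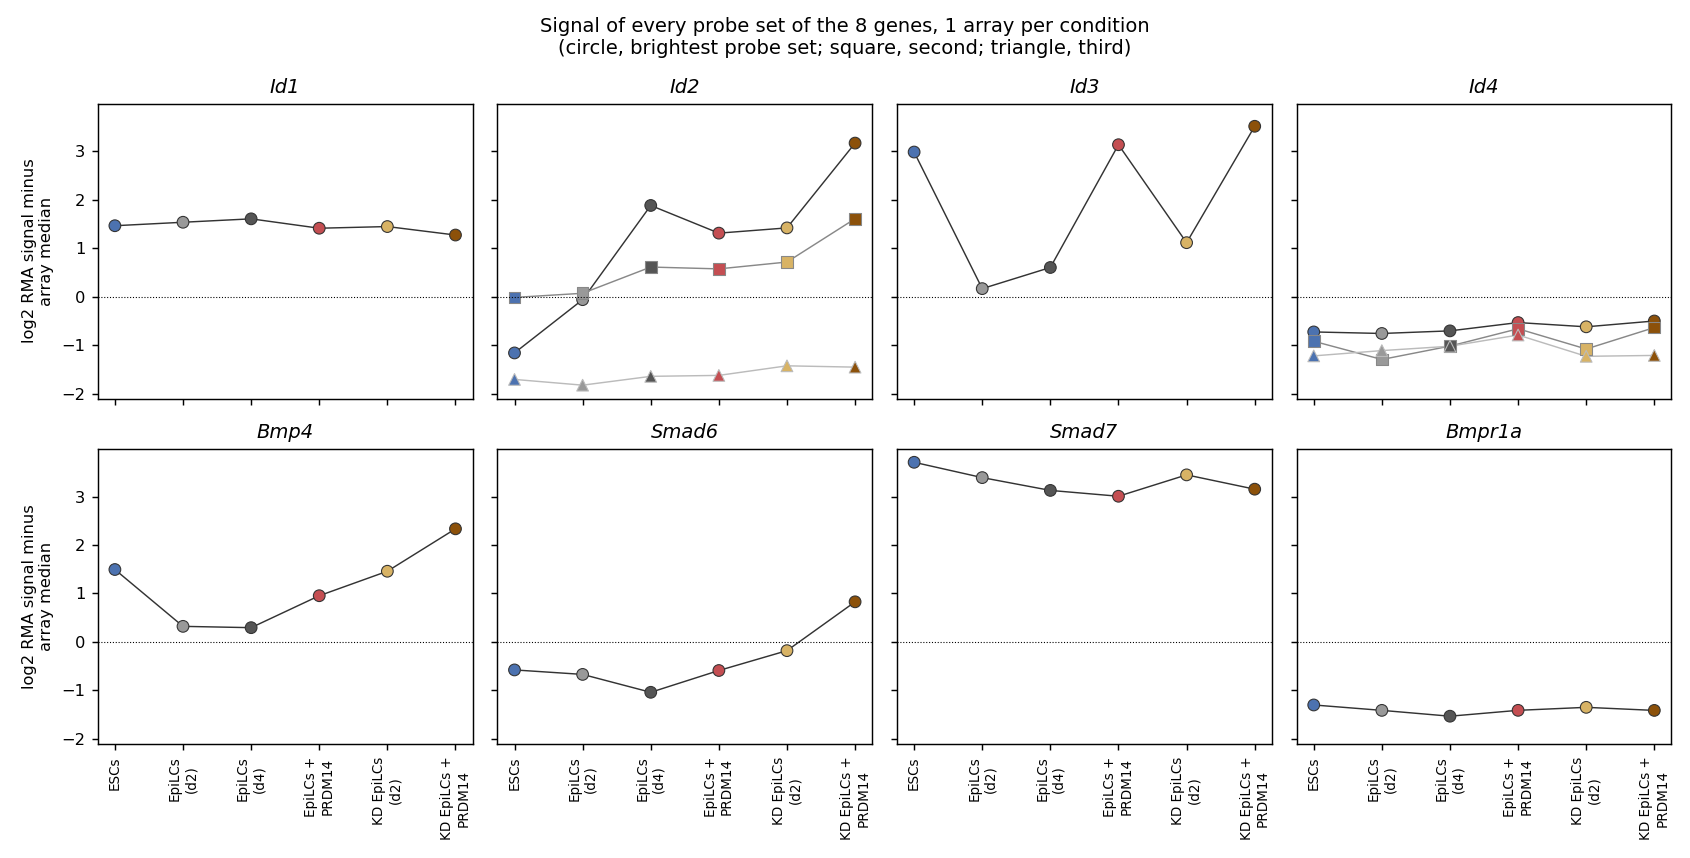
Log2 signal relative to the array median (vertical axis) of every probe set of the 8 genes in the 6 arrays (horizontal axis), with 1 point per array, lines joining the points of a probe set and the dotted line at the array median. *Id3* alternates between about 3 in ESCs and both PRDM14 arrays and 0.17 to 1.12 in the others, the brightest probe set of *Id2* is lowest in ESCs, and *Id1*, *Bmpr1a* and the brightest probe set of *Id4* range over 0.33 or less.

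*Id1* did not follow *Id3*, and *Id4* was too dim to tell. *Id1* (probe set 1425895_PM_a_at) read 1.47, 1.54, 1.61, 1.41, 1.45 and 1.27 in the order of arrays given for *Id2*, a range of 0.33. Both PRDM14 arrays lay below their EpiLCs (d2) partners, by 0.12 and 0.18 on the log2 scale, each less than 1.5-fold. The 3 probe sets of *Id4* lay below the median in every array. The brightest ranged over 0.26, and the second gave 0.63 for EpiLCs + PRDM14 against EpiLCs (d2), past the threshold, but 0.36 against EpiLCs (d4). In the same order of arrays the second read -0.92, -1.30, -1.02, -0.66, -1.08 and -0.64. It was thus highest in ESCs and both PRDM14 arrays, as *Id3* was, but the brightest and the third probe sets were not.

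*Bmp4* (probe set 1422912_PM_at), the ligand among the 8 genes, was lowest in the 2 scramble EpiLC arrays without PRDM14. Its level was 1.5 for ESCs, 0.32 for EpiLCs (d2), 0.29 for EpiLCs (d4), 0.95 for EpiLCs + PRDM14, 1.46 in the KD-labelled EpiLCs (d2) and 2.34 in the KD-labelled EpiLCs + PRDM14. EpiLCs + PRDM14 exceeded EpiLCs (d2) by 0.63 and EpiLCs (d4) by 0.66, or 1.55- and 1.58-fold, close to the threshold. ESCs exceeded EpiLCs (d2) by 1.17, or 2.26-fold.

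The receptor gene *Bmpr1a* (probe set 1445413_PM_at) read between -1.53 and -1.30 in the 6 arrays, so its single probe set was dim throughout and all its differences were within 0.12. *Smad7* (probe set 1423389_PM_at) lay well above the median in every array. It read 3.71 for ESCs, 3.39 for EpiLCs (d2), 3.13 for EpiLCs (d4), 3.01 for EpiLCs + PRDM14, and 3.45 and 3.15 in the KD-labelled EpiLCs (d2) and EpiLCs + PRDM14. The PRDM14 arrays were below their EpiLCs (d2) partners by 0.38 and 0.30, neither of them called, and its range of 0.70 lay between ESCs and EpiLCs + PRDM14, a pair not among the 7 compared. *Smad6* (probe set 1422771_PM_at) lay below the median in every array but 1. Its level was -0.58, -0.67, -1.04 and -0.59 in the ESC, day 2, day 4 and PRDM14 arrays with no KD label, -0.18 in the KD-labelled EpiLCs (d2) and 0.83 in the KD-labelled EpiLCs + PRDM14.

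The count of called genes is read against the share of all genes called in the same pair of arrays. Between EpiLCs + PRDM14 and EpiLCs (d2), 3 of the 8 genes were higher and 0 lower, and of all genes 2.72% were higher and 1.91% lower. Against EpiLCs (d4), *Id3* and *Bmp4* were higher and 0 lower, with 1.86% and 2.17% of all genes. Between ESCs and EpiLCs (d2), *Id3* and *Bmp4* were higher and *Id2* lower, with 2.64% and 2.35% of all genes. Between EpiLCs (d4) and EpiLCs (d2), *Id2* alone was higher and 0 were lower, with 2.18% and 1.12% of all genes. The median difference of the 8 genes was 0.15 in both PRDM14 comparisons, and the medians over all genes were -0.01 and 0.00.

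**Figure D2:**
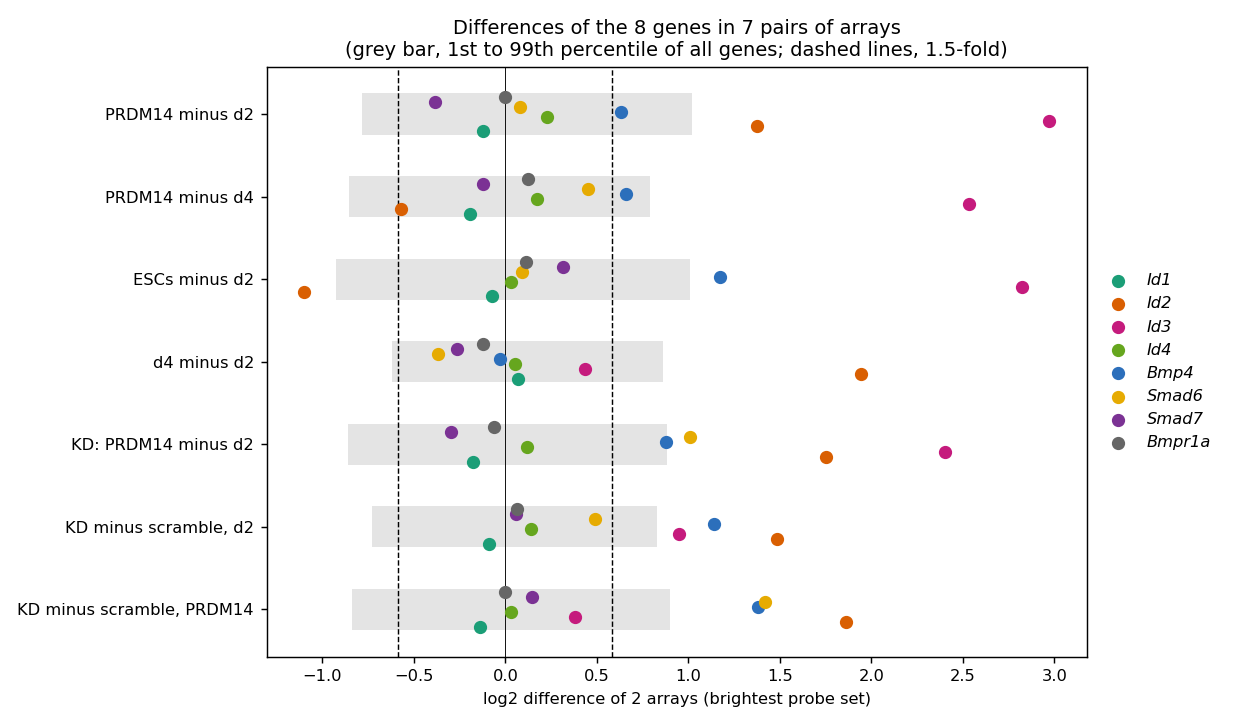
Log2 difference between 2 arrays (horizontal axis) of the brightest probe set of each of the 8 genes in 7 pairs of arrays (rows). Grey bars span the 1st to the 99th percentile of all 17097 genes and dashed lines mark 1.5-fold, and *Id3* lies at 2.97, 2.54, 2.82 and 2.40 in the PRDM14 and ESC pairs while *Id2* lies at -0.57 in the pair with EpiLCs (d4).

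In the arrays labelled *Tet1*/*Tet2* KD, 4 of the 8 genes were higher with PRDM14 than in EpiLCs (d2) and 0 lower, where 2.12% of all genes were higher and 2.53% lower. *Id3* differed by 2.40, or 5.29-fold, *Id2* by 1.75, or 3.37-fold, *Smad6* by 1.01, or 2.01-fold, and *Bmp4* by 0.88, or 1.84-fold. The brightest 2 probe sets of *Id2* were both past the threshold in this pair, the second with a difference of 0.89. No KD-labelled array of day 4 was analysed here, so the day and medium cannot be told apart from PRDM14 in this pair.

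Before PRDM14, *Id2*, *Bmp4* and *Id3* were already higher in the KD-labelled EpiLCs (d2) than in EpiLCs (d2), by 1.48, 1.14 and 0.95, or 2.79-, 2.20- and 1.93-fold. None of the 8 was lower, and of all genes 3.30% were higher and 2.25% lower. Between the KD-labelled and scramble EpiLCs + PRDM14, *Id2* was higher by 1.86, *Smad6* by 1.42 and *Bmp4* by 1.38, 0 were lower, and *Id3* differed by 0.38, which was not called. Of all genes 3.58% were higher and 3.38% lower in that pair. Neither *Tet2* probe set was lower in the KD-labelled EpiLCs (d2), so these differences describe the arrays as labelled. Both KD-labelled arrays also had the lower deposited median. In these pairs the knockdown cannot be told apart from any difference in how the arrays were processed.

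The PRDM14 differences of both backgrounds were set against each other. *Smad6* was the gene among the 8 whose difference was larger in the KD-labelled pair by more than 1.5-fold, 1.01 against 0.08, and 0 were smaller. Of all genes 0.994% had a larger and 2.25% a smaller difference by that much. The *Smad6* probe set read below the median in all scramble arrays. *Id3* had a smaller difference in the KD-labelled pair by 0.57, just inside the threshold, and the KD-labelled EpiLCs (d2) had the higher level of the 2 day 2 arrays. For *Id2* and *Bmp4* the KD-labelled difference was larger by 0.38 and 0.24, and for the other 4 genes the 2 differences lay within 0.11 of each other.

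**Figure D3:**
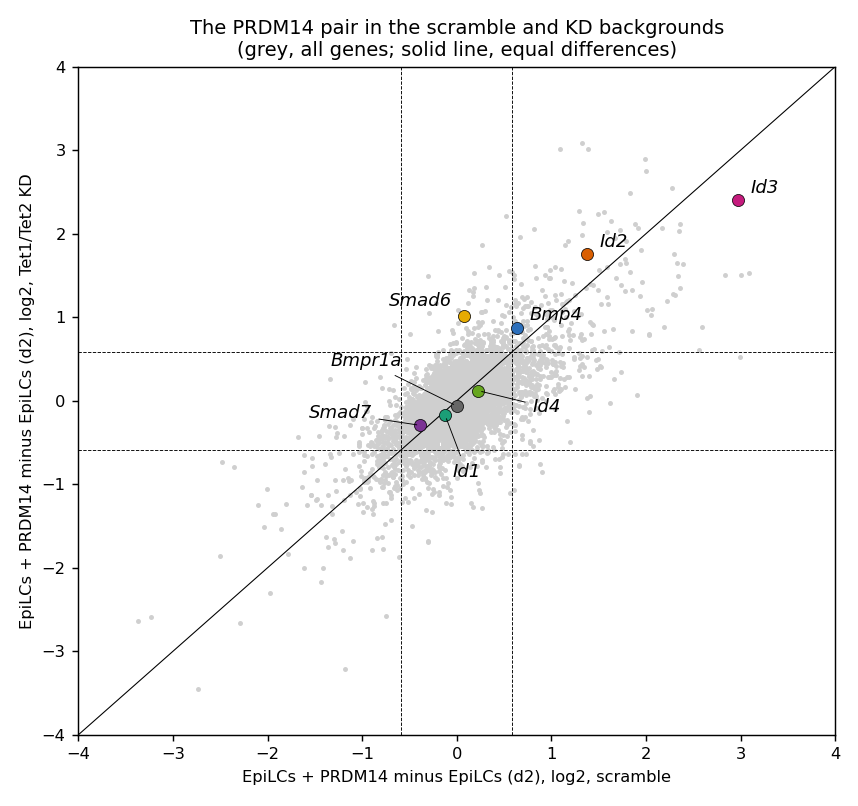
Log2 difference between EpiLCs + PRDM14 and EpiLCs (d2) in the scramble arrays (horizontal axis) and in the KD-labelled arrays (vertical axis), with grey points for all 17097 genes, dashed lines at 1.5-fold and a solid line where both are equal. *Id3*, *Id2* and *Bmp4* lie past 1.5-fold on both axes, and *Smad6* at 0.08 and 1.01 on the vertical one alone.

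The other genes of the pathway and the partners of ID proteins were read from 6 lists of 82 genes, of which 74 were measured. Between EpiLCs + PRDM14 and EpiLCs (d2), 2 were higher and 3 lower, 2.70% and 4.05% of the 74, beside 2.72% and 1.91% of all genes. Between EpiLCs + PRDM14 and EpiLCs (d4), 1 was higher and 3 lower, 1.35% and 4.05%, beside 1.86% and 2.17% of all genes. In the KD-labelled PRDM14 pair 5 were higher and 3 lower, 6.76% and 4.05%, beside 2.12% and 2.53% of all genes. The list medians lay between -0.24 and 0.08 in these comparisons.

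None of the 10 other BMP ligands and none of the 8 other receptors was called in the 3 PRDM14 comparisons. Of the 12 SMADs and nuclear partners, *Smad1*, *Smad5* and *Smad4* were not called, and *Skil*, which encodes the SMAD corepressor SnoN, was lower in all 3. Its deposited log2 signal was 8.04 for ESCs, 10.06 for EpiLCs (d2), 10.03 for EpiLCs (d4), 9.18 for EpiLCs + PRDM14, 9.75 in the KD-labelled EpiLCs (d2) and 8.39 in the KD-labelled EpiLCs + PRDM14. After median subtraction the differences were -0.88, -0.86 and -1.36, and ESCs were below EpiLCs (d2) by 2.03, so *Skil* was low where *Id3* was high. *Zfp423*, a zinc finger partner of BMP SMADs, was lower in the KD-labelled pair alone of the 3, by 0.83, and lower in ESCs than in EpiLCs (d2) by 1.18.

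Among 14 secreted and membrane inhibitors, *Fstl1*, a follistatin-like BMP antagonist, was called in all 3 PRDM14 comparisons. It was higher by 2.03 against EpiLCs (d2), by 0.89 against EpiLCs (d4) and by 0.78 in the KD-labelled pair, and EpiLCs (d4) exceeded EpiLCs (d2) by 1.14. *Nog* and *Grem1*, other BMP antagonists, were not called.

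Among 19 other BMP target genes, *Tbx3*, a T-box factor that also marks naive ESCs, was higher by 0.74 against EpiLCs (d2) and by 0.95 in the KD-labelled pair, but by 0.46 against EpiLCs (d4). *Dusp9*, a MAP kinase phosphatase gene that BMP is known to induce in ESCs, was lower than in EpiLCs (d2) by 1.04 in EpiLCs + PRDM14 and by 1.12 in EpiLCs (d4), and the 2 arrays of the later medium differed by 0.09. *Gata2* and *Stat3* were higher in the KD-labelled pair, each by 0.61, where their scramble differences were 0.40 and -0.01.

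The 11 measured genes of the ID partner list were the E protein genes *Tcf3*, *Tcf4* and *Tcf12* and other bHLH genes. Of them, *Hes6* was lower against EpiLCs (d2) by 0.59, at the edge of the threshold. Against EpiLCs (d4), *Tcf12* was lower by 0.69 and *Ascl2* by 0.90, and both had been higher in EpiLCs (d4) than in EpiLCs (d2), by 0.74 and 1.02. In the KD-labelled pair *Ascl2* was higher by 0.83 and *Tcf4* lower by 0.85. *Tcf3*, which encodes the E proteins E12 and E47, was not called in any of the 3.

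**Figure D4:**
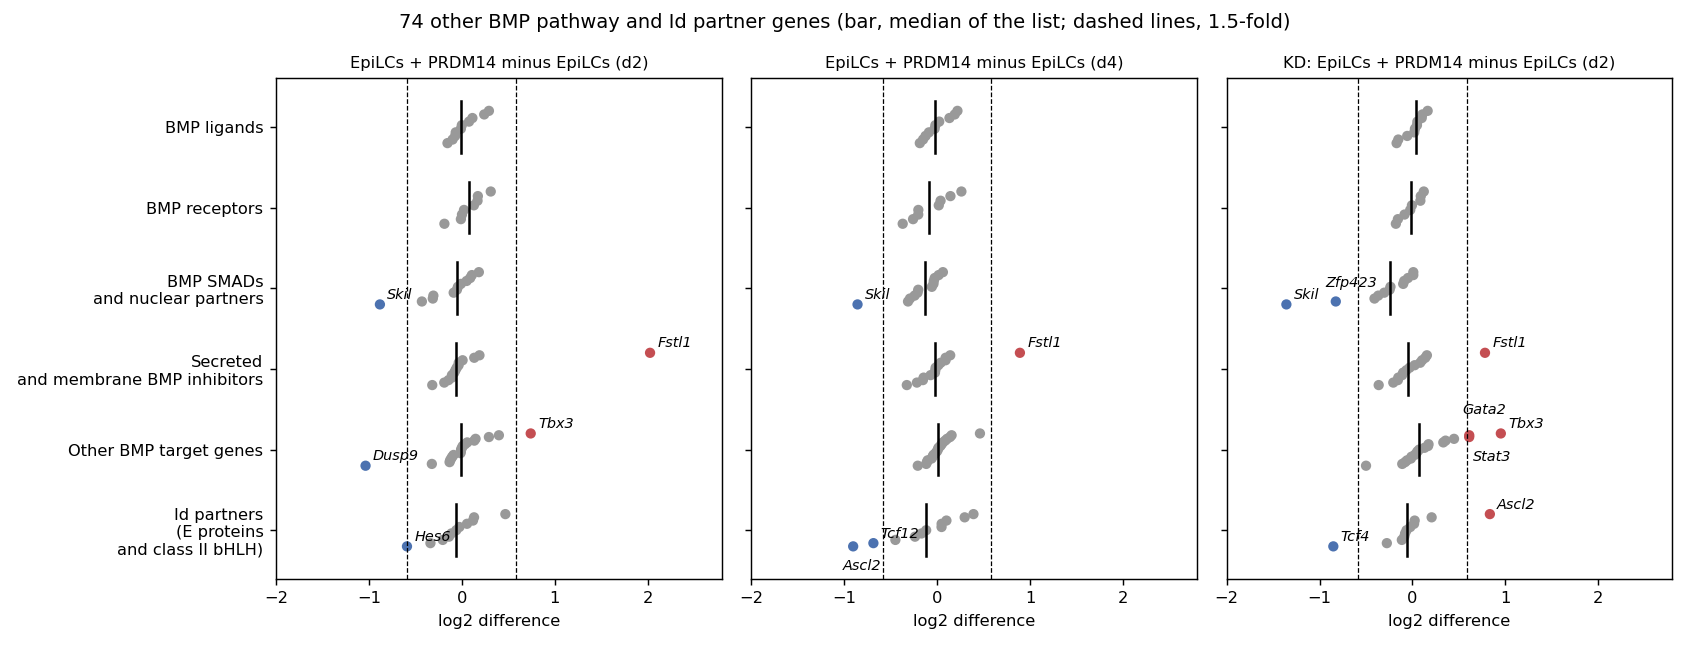
Log2 difference (horizontal axis) of 74 other BMP pathway and ID partner genes in 6 lists (rows) for 3 PRDM14 comparisons (panels), with red and blue points for genes at least 1.5-fold higher or lower and a bar at each list's median. Most genes lie between the dashed lines, with *Skil* left of them and *Fstl1* right of them in all 3 panels.

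*Id3* and *Id2* were each set beside the genes whose levels were most like theirs over the 6 arrays, by Pearson's r among 1091 genes that ranged over at least 1 log2 unit and were at or above the median signal. The genes most like *Id3* were *Nanog*, the pluripotency homeobox gene, with r = 0.99, then *Lmo7*, *Ulk1*, *Slc25a20* and *Ak4* with r of 0.97 to 0.99. *Nanog* had a deposited log2 signal of 10.32 for ESCs, 7.91 for EpiLCs (d2), 8.43 for EpiLCs (d4), 10.25 for EpiLCs + PRDM14, and 8.77 and 10.27 in the KD-labelled EpiLCs (d2) and EpiLCs + PRDM14, so the same 3 arrays were high. The genes most like *Id2* were *Atp6v1e1*, *Casd1*, *Mmd*, *BC080696* and *P4ha2*, with r of 0.97 to 0.98. The single-array levels of *Id1* and *Smad7* ranged over 0.33 and 0.70, and the genes listed as most like them were *Prune2*, *Mmgt1*, *Ptk7*, *Inppl1* and *Myo10* for *Id1* and *Klhl22*, *Xlr4b*, *Pttg1*, *Slc35g1* and *Irf2bpl* for *Smad7*. With 6 arrays and 1091 genes, high values of r are easily reached, and these names are a description. Between *Id2* and *Id3* themselves r was 0.17.

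**Figure D5:**
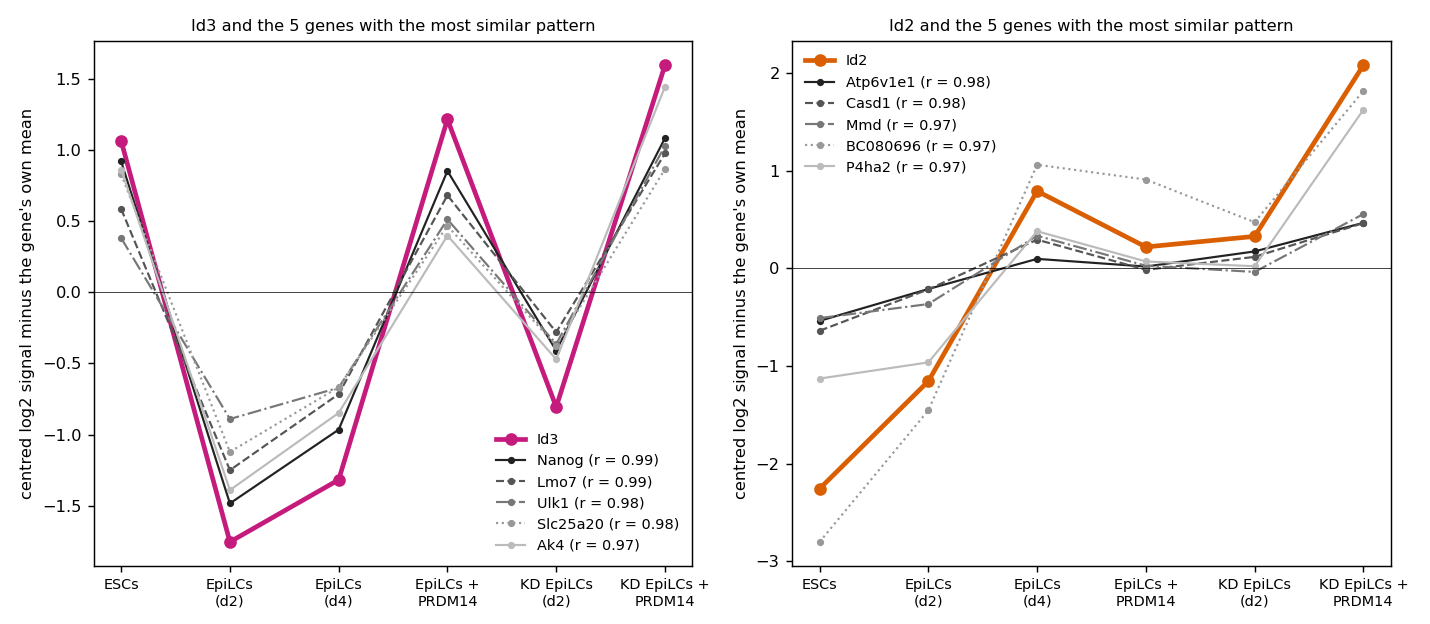
Log2 signal relative to the array median minus each gene's own mean (vertical axis) in the 6 arrays (horizontal axis) for *Id3* and *Id2* (coloured) and the 5 genes most like each (grey). *Nanog* and *Id3* peak in ESCs and both PRDM14 arrays, whereas *Id2* and its 5 genes are lowest in ESCs.

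Markers of some cell states, but not of others, differed between the arrays alongside these levels. The mean level of the 8 naive markers was 4.14 for ESCs, 2.11 for EpiLCs (d2), 2.20 for EpiLCs (d4), 3.59 for EpiLCs + PRDM14, 2.84 in the KD-labelled EpiLCs (d2) and 3.87 in the KD-labelled EpiLCs + PRDM14. The 3 arrays with high *Id3* had the 3 highest means. The mean of the 6 EpiLC markers was 1.66, 3.38, 3.14, 1.54, 3.23 and 1.47 in the same order, lowest in these 3 arrays. The mean of 6 trophoblast markers was 0.20, 0.18, 0.82, 0.70, 0.39 and 1.44 in the same order, highest where *Id2* was highest. *Krt7*, *Krt18* and *Tfap2c* carried this, all 3 called in the pair of EpiLCs (d4) and EpiLCs (d2) and in the KD-labelled PRDM14 pair, whereas *Cdx2*, *Elf5* and *Gata3* were called in neither. The paper lists *Tfap2c* among genes enriched in primordial germ cells that PRDM14 activated, so it does not mark trophoblast alone. The deposited log2 signal of *Cdx2* was 5.55 to 5.80 and that of *Elf5* 4.43 to 4.81. The means of the fibroblast and primitive endoderm markers stayed between -0.90 and -0.71 and between -0.15 and -0.04. The mean of 4 neural markers was 0.26, -0.24, 0.06, 0.41, -0.19 and 0.26, highest in the 3 arrays with high *Id3*, and of the 4 *Tubb3* alone was called with PRDM14, by 2.31 against EpiLCs (d2), 1.31 against EpiLCs (d4) and 1.27 in the KD-labelled pair. The mean of 6 primitive streak and mesoderm markers was 0.65 to 0.67 in the 4 other arrays and 0.96 and 1.01 in the KD-labelled arrays, where *Id2* and *Bmp4* were also higher than in their scramble partners. Of these markers *Tbx6* alone was called between KD-labelled and scramble EpiLCs (d2), by 0.63, and 0 were called between the PRDM14 arrays. The streak marker *T* was listed but not measured. The part of these cell states in the *Id2*, *Id3* and *Bmp4* differences was not tested.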

How the data were processed

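Total RNA of 6 cultures, 1 array each, was hybridized to Affymetrix mouse PM array strips. The authors summarised each probe set by robust multi-array average and deposited the log2 signal. The submitters' processing notes name Affymetrix Expression Console, and its version and the set of arrays normalized together are not given in the sources used here. Of 45141 probe sets, 104 controls were left out. The platform annotation gives 28898 probe sets 1 symbol, 551 several and 15588 none, and the first stand for 17097 genes. Each array's median was subtracted, and a gene with several probe sets is given by the brightest, that with the highest mean over the 6 arrays. Differences of 1.5-fold or more were called. With 1 array per condition no test was run, and precision is limited by the number of arrays.

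All 8 genes are given with all their probe sets. Pathway genes are named where they passed the threshold in a PRDM14 comparison, other pathway genes named as not called were added after their values were seen, and 5 genes most like each of *Id1*, *Id2*, *Id3* and *Smad7* are named. Genes, lists and comparisons were chosen with earlier results of these data known. Alternatives were a 2-fold threshold, quantile normalization over all 6 arrays, no median subtraction, the mean or the most different probe set of a gene, a filter on dim probe sets and EpiLCs (d4) as the reference. Promoter sequences come from RefSeq (GRCm38.p6). The calculation was tested on simulated data. Python 3.11.15, numpy 2.4.6, pandas 2.3.3 and matplotlib 3.10.9 were used.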

Additional observations from a re-analysis of the deposited data

How the results depend on the processing

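Of 369 differences of the 8 genes recomputed under an alternative, 361 kept their side of the threshold, 6 called ones were no longer called, 1 became called and 1 called one changed sign. Another 8 that were not called changed sign too, 5 of them without median subtraction, with sizes of at most 0.15 before and 0.42 after. Quantile normalization and the values without median subtraction changed no call of the 8 genes. With EpiLCs (d4) in place of EpiLCs (d2) as the reference for EpiLCs + PRDM14, *Id2* turned from 1.37 to -0.57. At a 2-fold threshold the count of genes between EpiLCs + PRDM14 and EpiLCs (d4) went from 2 to 1 (*Id3*), and that of genes whose PRDM14 difference was larger in the KD-labelled arrays from 1 to 0. It also went to 0 with dim probe sets left out, since *Smad6* is among them by its mean over the 4 arrays. Below the 2-fold threshold were *Bmp4* in the 3 PRDM14 comparisons (0.63, 0.66 and 0.88), *Id3* in KD-labelled against scramble EpiLCs (d2) (0.95) and the *Smad6* difference of differences (0.93). By the mean of its 3 probe sets, *Id2* in ESCs differed from EpiLCs (d2) by -0.36, not called, and by its most different probe set *Id4* was called with PRDM14 (0.63). No replicate could be left out. No paired analysis was possible because each condition has 1 array. Signal over background limits *Id4*, *Smad6* and *Bmpr1a*, whose mean signal lay below the median of all probe sets. It also limits *Id2* between ESCs and EpiLCs (d2), where the filter on dim probe sets left *Id2* out.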

Other observations

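Pathway genes outside the PRDM14 comparisons, named after their values were seen, differed between KD-labelled and scramble arrays. *Bmper*, which encodes a secreted BMP-binding protein, was higher in the KD-labelled EpiLCs (d2) by 0.95 and in the KD-labelled EpiLCs + PRDM14 by 1.08. The E protein gene *Tcf4* was lower by 0.76 and 1.28 in the same pairs, and the ligand gene *Gdf5* by 0.63 in the EpiLCs (d2) pair. *Gdf5* and *Bmper* were dim, at percentiles 22.8 and 33.3 of the mean signals of all probe sets, so signal over background limits their differences. Of the 74 measured pathway genes, 6 were higher and 2 lower in the KD-labelled EpiLCs + PRDM14 than in EpiLCs + PRDM14, 8.11% and 2.70%, beside 3.58% and 3.38% of all genes. Besides *Bmper*, the higher ones were *Ascl2* (0.87), *Tbx3* (0.78), the bHLH repressor gene *Hes1* (0.70), *Tcf12* (0.60) and the receptor gene *Acvr1* (0.59). Besides *Tcf4*, *Fstl1* was lower, by 0.88.

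Over the 6 arrays *Bmp4* and *Smad6* had r = 0.89 with each other, and *Id1* had r = -0.92 with *Smad6* and -0.91 with *Bmp4* while ranging over 0.33 log2 units. These are descriptions of 6 arrays, 2 of which have a lower deposited median.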
